A study of Mus musculus with 7 samples.

Results

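Argonaute crosslinks beside a seed match of the miR-17 family or of the miR-25/92 family were examined in neonatal mouse retina. Argonaute is the protein that carries microRNAs, and PAR-CLIP marks where it touches RNA: 4-thiouridine is built into the RNA in place of uridine, ultraviolet light (365 nm) fixes it to a protein in contact, and the fixed base is read from the recovered RNA. The members are exonic crosslink positions whose window of 20 nt on either side, along the spliced transcript, held a match to bases 2 to 8 of miR-17-5p or miR-92a-3p. Of 10989 exonic positions, among 14054 positions in all, 575 (5.23%) were members. The miR-17 family had 398 of them, 3.62% of exonic positions (exact 95% binomial interval 3.28 to 3.99), and the miR-25/92 family had 178, 1.62% (1.39 to 1.87), with 1 window holding both.

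The retinas came from CD-1 mice at postnatal day 0 and were kept as explants for 24 h in medium with 0.1 mM 4-thiouridine and 20% horse serum. Each library was made from 6 pooled retinas; 5 libraries were made with an Argonaute antibody, and the 2 control libraries made with IgG were handled in the same way and enter no comparison here. The study looked for recurrent Argonaute sites of miR-216a and miR-216b, in connection with amacrine cells and Foxn3. The crosslink table pools the Argonaute libraries and gives, for each position, the number of libraries that held it, from 2 to 5. No value per library was used, so no difference could be set against the spread between libraries, the read depth is unknown, and the intervals cover counting error only. Positions of a gene share their RNA and are not replicates, and the explant holds many cell types that this table does not separate. Of 12 retinal marker genes, 9 had exonic crosslinks, among them Pax6, Crx and Otx2, while none of the markers of pigment epithelium (8), microglia (6) or lens (3) had any. Of 7 vessel and mural cell markers only Kdr was crosslinked, and of 3 astrocyte markers only Pdgfra, which held a miR-17 match at 1 of its 2 exonic positions. The 9 crosslinked retinal markers held a match of either family at 0 of 63 exonic positions, beside 5.23% of all exonic positions.

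MicroRNAs guide Argonaute to messenger RNAs mainly by pairing of the seed, bases 2 to 8, and the bound RNA is then translated less and broken down by deadenylation. Several members of the miR-17 and miR-25/92 families are made from the same precursor transcripts, the Mir17hg cluster and its paralogs. Of these, the miR-106b cluster lies in an intron of Mcm7. Others do not share a transcript, such as miR-92b-3p and miR-367-3p on chromosome 3 and miR-32-5p on chromosome 4. Both families are known as drivers of proliferation, with reported targets among cell cycle inhibitors and genes of cell death. An 8mer match has an A opposite base 1 of the microRNA in addition to the 7mer, and is in general the stronger site.

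The mature microRNAs are shown because the families differ at the seed, and because the position results turn on base 9, the base next to it; capitals mark bases 2 to 8 (RefSeq, GRCm38.p6). The first 4 belong to the miR-17 family and the others to the miR-25/92 family.
miR-17-5p: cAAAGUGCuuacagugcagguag
miR-20a-5p: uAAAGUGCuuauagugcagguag
miR-93-5p: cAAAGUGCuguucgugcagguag
miR-106b-5p: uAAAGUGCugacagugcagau
miR-92a-3p: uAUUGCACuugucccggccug
miR-25-3p: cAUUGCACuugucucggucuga
miR-92b-3p: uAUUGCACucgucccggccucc
miR-32-5p: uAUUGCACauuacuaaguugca
miR-363-3p: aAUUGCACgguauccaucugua
Base 9 was U in each of these except miR-32-5p, where it was A, and miR-363-3p, where it was G. The same seeds are shared by miR-20b-5p, miR-106a-5p and miR-6383 in the former family and by miR-367-3p in the latter, so a crosslink cannot be given to 1 microRNA of a family. The window match was GCACTTT for miR-17 and GTGCAAT for miR-25/92. No crosslink lay within 80 nt of any of these mature microRNAs in the genome; Mir17hg held 1 position, found in 2 libraries, and Mcm7 held 0.

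The sites below were found in all 5 Argonaute libraries and show the usual layout, in which the crosslinked T is the base just before the match. Capitals mark the match, with its A where it is an 8mer, and the line gives the RNA strand. The first 6 are miR-17 sites.
Cnot7: catcaagtttGCACTTTAgagag
Cnot6l: aacttttcatGCACTTTActgtt
Epha4: cctcatccatGCACTTTAattga
Ago2: cagagctgttGCACTTTctctgt
Smad5: ttttcattttGCACTTTtatggg
Pank3: gaggaaacttGCACTTTAtcaga
Btg2, at 134076030: ttgtagatgtGTGCAATAtttac
Btg2, at 134076331: ctcagtcactGTGCAATAgtccc
Tob2: tcagaacattGTGCAATAttttg
Dkk3: actggtagatGTGCAATAgaaat
Sox4: catccatcctGTGCAATAtgccg
Cic: tgttgatcatGTGCAATAtttct
Map1b: tgatatttgtGTGCAATAtcccc
Usp9x: gaaagagaatGTGCAATcaagtt

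The place of the match relative to the crosslink was narrow in both families. A match that began 1 nt after the crosslink put the crosslinked T opposite base 9 of the microRNA, and this was the case for 251 of 398 miR-17 positions (63.1%) and 131 of 178 miR-25/92 positions (73.6%). Matches lay after the crosslink far more often than before it: 338 against 44 for miR-17 and 154 against 19 for miR-25/92, over flanks of equal length. Most of this excess was the 1 nt start itself. Without that start the counts were 87 against 44 for miR-17 and 23 against 19 for miR-25/92. The crosslink fell inside the match at 16 and 5 positions. Without the window with both matches, the share that began 1 nt after was lower for miR-17 than for miR-25/92, at 63.0% against 74.0% (odds ratio 0.598, exact 95% interval 0.394 to 0.898; Fisher's exact test, two-sided, adjusted p = 0.0198 over 4 tests between the families). The miR-17 positions had more matches that began 2 or 3 nt after the crosslink, 41 of 398 (10.3%) against 7 of 178 (3.93%), a count taken after the offsets were seen. Of these, 10 of 41 and 3 of 7 had a T just before the match. Crosslinks form at T. In 3′ UTRs of crosslinked genes, 40.9% of 1245 miR-17 matches had a T just before them, against 52.8% of 600 miR-25/92 matches. Whether the families differ in offset beyond this was not tested.

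**Figure D1:**
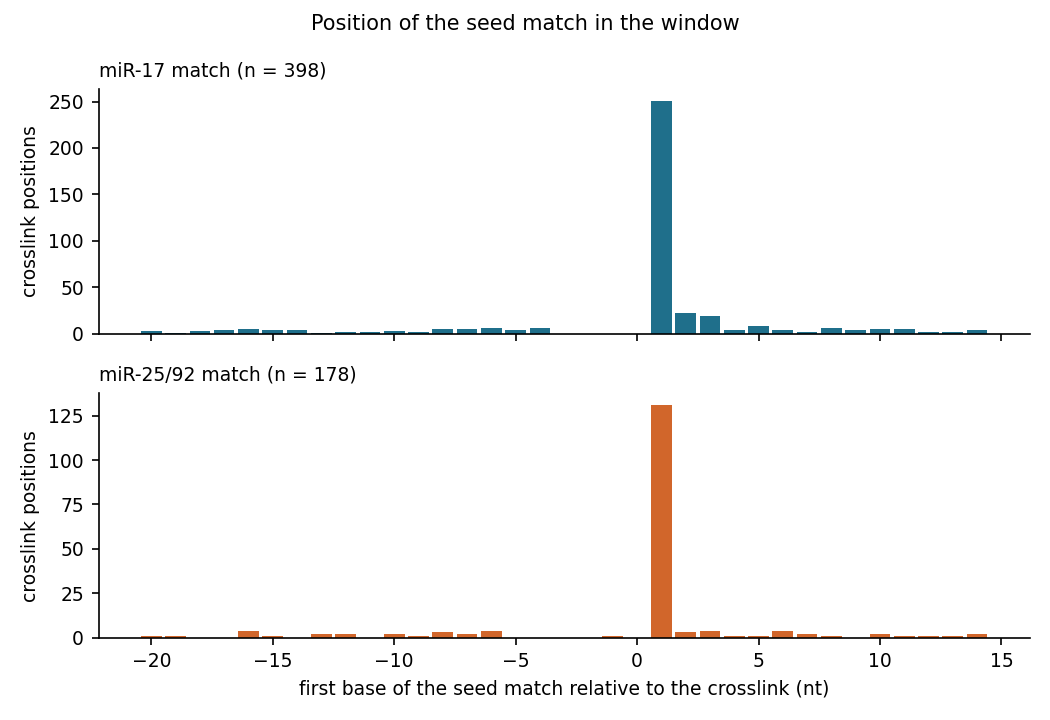
Number of crosslink positions (vertical axis) by the place of the first base of the seed match relative to the crosslink in nt (horizontal axis), for the miR-17 match (upper panel, n = 398) and the miR-25/92 match (lower panel, n = 178). In both panels the bar at 1 nt after the crosslink stands above all others, with 251 and 131 positions.

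Some miR-17 matches overlapped a match of miR-19, another microRNA of the same cluster. The miR-19 match TTTGCAC can run into the miR-17 match as TTTGCACTTT, and this run was present at 53 of 398 miR-17 positions. A miR-19 match was held by 55 miR-17 windows (13.8%, 10.6 to 17.6), by 2.87% of windows with neither family's match, and by 0 of 178 miR-25/92 windows. Of the 53 positions, 36 began 1 nt after the crosslink and 7 (13.2%) began 3 nt after it, compared with 12 of 345 (3.48%) for the remaining miR-17 positions. The run always has a T 3 nt before the miR-17 match, which the remaining positions need not have, so these 2 shares are not like for like. Positions with the run were found in 3 or more libraries at 24 of 53 (45.3%, 31.6 to 59.6), near the 43.2% (37.9 to 48.6) of the remainder. Cnot7, Kdm2a, Smad5, Zbtb18 and Zfp91 had such a run in all 5 libraries, and Zbtb18 was chosen after its values were seen. For these genes the table does not tell miR-17 from miR-19. Beyond the 2 families, only seeds of miR-19, miR-18, let-7 and miR-9 were searched for. Matches of further microRNAs may therefore overlap these and other miR-17 sites.

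Recurrence across libraries was above the background in both families. Of all exonic positions 29.6% were found in 3 or more libraries; the share was 43.5% (173 of 398) for miR-17 and 43.8% (78 of 178) for miR-25/92, against 28.8% of positions with neither match. The odds ratios were 1.90 (1.54 to 2.34; Fisher's exact test, two-sided, adjusted p = 5.78e-09 over 4 tests) and 1.93 (1.41 to 2.62; adjusted p = 2.71e-05). All 5 libraries held 32 miR-17 positions (8.04%) and 15 miR-25/92 positions (8.43%), with 4.27% for all exonic positions. The families did not differ detectably from each other, at 43.6% and 44.1% (odds ratio 0.980, 0.676 to 1.42; Fisher's exact test, two-sided, adjusted p = 0.928). Within 3′ UTRs the odds ratios against positions with neither match were 1.78 and 1.74. With 1 position per gene, the one in most libraries, the contrast was not past the threshold (odds ratios 1.06 and 1.04, Fisher's exact test, two-sided, adjusted p = 0.810 for each). The share was then 45.5% for miR-17, 45.1% for miR-25/92 and 44.1% for positions with neither match. The 398 miR-17 positions lay in 365 genes and the 178 of miR-25/92 in 164, while all 10989 exonic positions lay in 4339 genes. Taking the highest of several positions thus raised mainly the share of positions with neither match, from 28.8%. This choice therefore cannot decide whether the contrast holds by gene. With the first position of each gene by coordinate the odds ratios were 2.24 and 2.19.

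**Figure D2:**
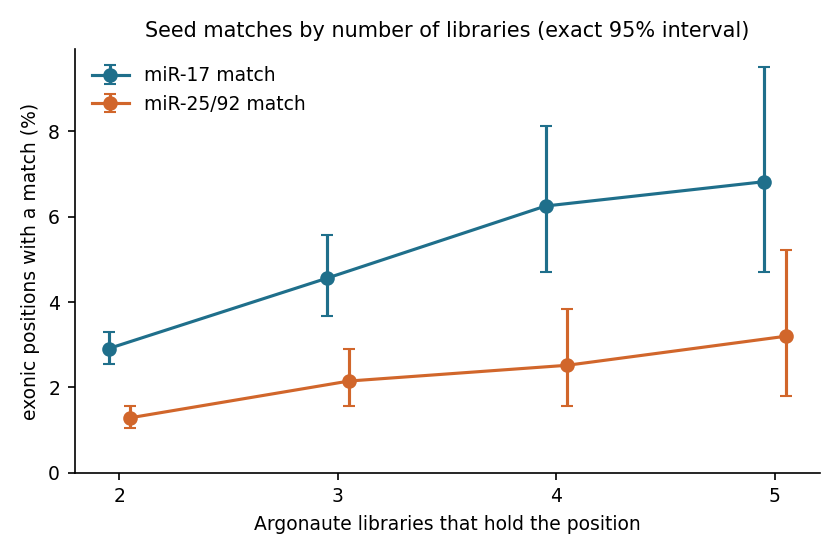
Share of exonic positions with a match of each family (vertical axis, %) among positions held by 2, 3, 4 or 5 Argonaute libraries (horizontal axis); bars are exact 95% binomial intervals. The miR-17 share goes from 2.91% at 2 libraries to 6.82% at 5 and the miR-25/92 share from 1.29% to 3.20%.

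Recurrence depended on where the match lay. The share of positions found in 3 or more libraries was 52.0% (224 of 431) where the match began between 1 nt before and 3 nt after the crosslink, and 18.8% (27 of 144) elsewhere in the window (odds ratio 4.68, 2.92 to 7.71; Fisher's exact test, two-sided, p = 1.12e-12). It was 54.2% (47.8 to 60.5) for miR-17 matches that began 1 nt after and 52.7% (43.8 to 61.5) for those of miR-25/92. Where the match ended before the crosslink it was 15.9% (7 of 44) and 15.8% (3 of 19). Every miR-17 position in all 5 libraries had the match near, and so did 14 of the 15 of miR-25/92; the exception was in a noncoding exon of Rpl7a, a ribosomal protein gene, named after its values were seen. In coding sequence the near share was 42.6% (23 of 54) for miR-17 and 46.2% (6 of 13) for miR-25/92. Within 3 nt inside the edges of the window lay 15 miR-17 positions, 1 of them in 3 or more libraries, and 6 miR-25/92 positions, also 1. Within 3 nt outside lay 22, of which 9 were in 3 or more libraries, and 11, of which 8 were.

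**Figure D3:**
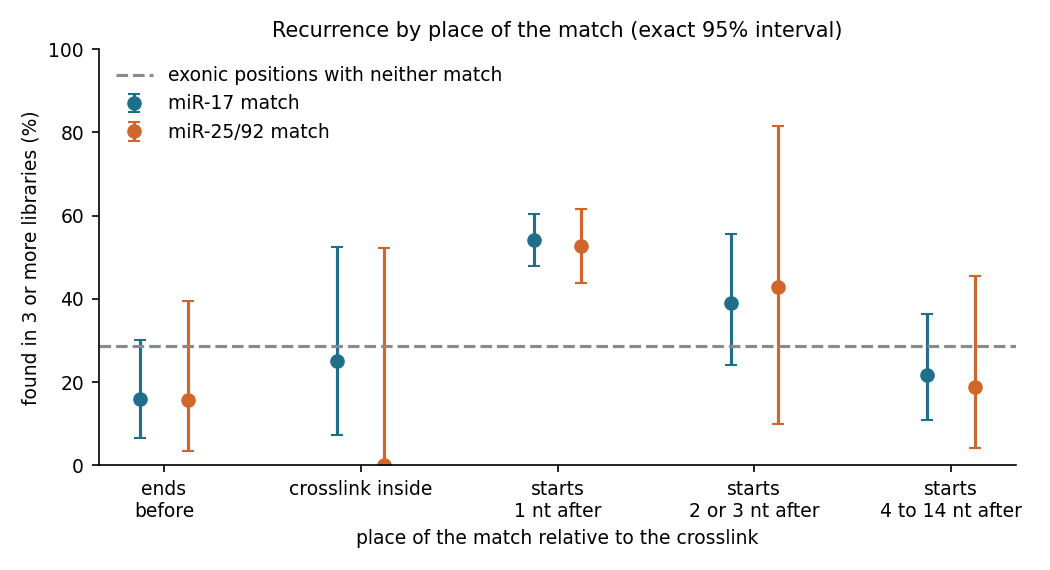
Share of positions found in 3 or more libraries (vertical axis, %) by the place of the match relative to the crosslink (horizontal axis), for both families; bars are exact 95% binomial intervals and the dashed line is the 28.8% of exonic positions with neither match. The points for matches that begin 1 nt after the crosslink, 54.2% and 52.7%, lie above the line with their whole interval.

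The miR-25/92 members were richer in 8mers. The share was 53.7% against 35.8% for miR-17 (odds ratio 0.481 for miR-17 over miR-25/92, 0.330 to 0.700; Fisher's exact test, two-sided, adjusted p = 3.01e-04). Among positions whose match began 1 nt after the crosslink it was 59.5% (78 of 131) and 36.7% (92 of 251), while where the match ended before the crosslink it was 8 of 19 and 18 of 44. At the 1 nt start, miR-25/92 8mers were found in 3 or more libraries at 60.3% (48.5 to 71.2) and its 7mers at 41.5% (28.1 to 55.9). For miR-17 the values were 57.6% (46.9 to 67.9) and 52.2% (44.1 to 60.2). The intervals of 8mers and 7mers overlapped in both families, and the difference between them was not tested. All 5 libraries held 12 of 78 such miR-25/92 8mers (15.4%) and 2 of 53 7mers (3.77%). For miR-17 they held 13 of 92 8mers (14.1%) and 17 of 159 7mers (10.7%). Shorter matches rarely had the 1 nt start: 15 of 130 windows with a 6mer alone for miR-17 and 1 of 82 for miR-25/92.

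The matches present in the transcripts differ in the same direction, so the crosslinked ones were set against them. In the longest protein-coding transcript of 4197 genes with an exonic crosslink, 3′ UTRs held 1245 miR-17 matches, of which 27.6% were 8mers, and 600 miR-25/92 matches, of which 39.0% were. A crosslink in the window was found for 286 of the former (23.0%, 20.7 to 25.4) and 144 of the latter (24.0%, 20.6 to 27.6). Crosslinks form at T, and the share went with a T just before the match: 41.1% of 509 miR-17 matches with a T there held a crosslink and 10.5% of 736 without, and for miR-25/92 it was 40.1% of 317 and 6.01% of 283. Of 8mers with that T, 51.2% (66 of 129) held a crosslink for miR-17 and 52.9% (72 of 136) for miR-25/92; of 7mers with that T, 37.6% (143 of 380) and 30.4% (55 of 181). In coding sequence the shares were 12.5% of 570 (9.86 to 15.5) and 5.48% of 365 (3.38 to 8.34). These genes were included for holding a crosslink, which can be the member itself, so the levels are high by construction and only the families and kinds of match are set side by side; no test was made.

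**Figure D4:**
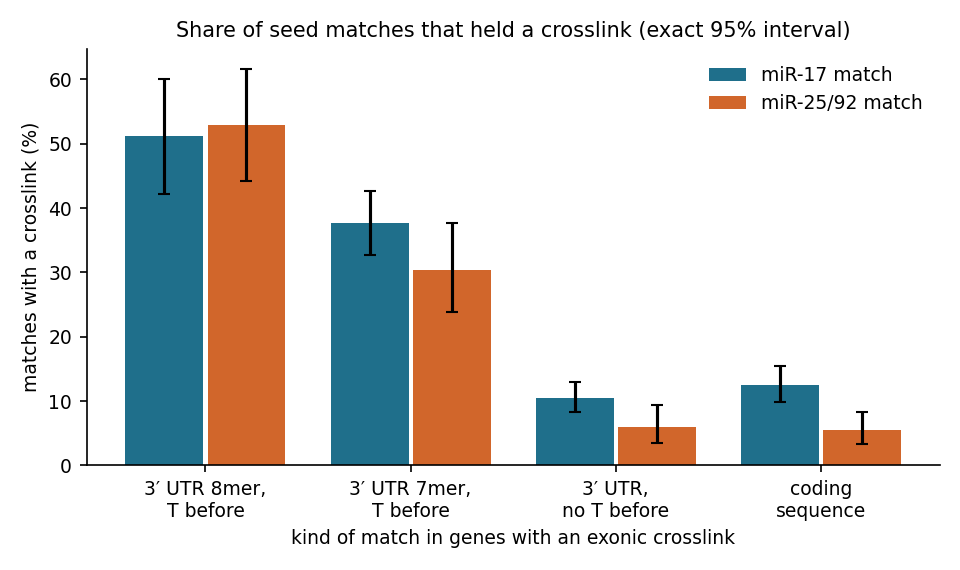
Share of the matches present in 4197 crosslinked genes that held a crosslink (vertical axis, %), by kind of match (horizontal axis), for both families; bars start at 0 and carry exact 95% binomial intervals. The 8mers with a T before them are highest in both families, at 51.2% and 52.9%.

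Both families lay mostly in 3′ UTRs, the part of a messenger RNA where most known microRNA sites act. The share was 78.1% for miR-17 and 86.0% for miR-25/92, against 65.9% of exonic positions with neither match (odds ratios 1.85, 1.45 to 2.38, and 3.17, 2.06 to 5.06; Fisher's exact test, two-sided, adjusted p = 2.45e-07 and 5.81e-09). With 8mers only, the miR-17 contrast was no longer past the threshold (odds ratio 1.24, 0.858 to 1.83; Fisher's exact test, two-sided, adjusted p = 0.249). Coding sequence held 77 miR-17 positions (19.3%, 15.6 to 23.6) and 21 miR-25/92 positions (11.8%, 7.45 to 17.5), and 5′ UTRs held 3 and 0. Between the families the 3′ UTR share differed (odds ratio 0.587, 0.345 to 0.969; Fisher's exact test, two-sided, adjusted p = 0.0407). In the same exact test this call ended where coding sequence took precedence over 3′ UTR in the annotation (0.642, adjusted p = 0.0937) and with the most recurrent position per gene (0.594, adjusted p = 0.0605).

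Along the 3′ UTR, miR-25/92 positions were more frequent close to the transcript end. With the UTR cut into 10 equal bins, the last bin held 20.3% of 153 miR-25/92 positions, 11.6% of 311 miR-17 positions and 11.7% of 6862 positions with neither match. The last 150 nt of the transcript held 29 of 153 miR-25/92 positions (exact interval 13.1% to 26.1%), 31 of 311 miR-17 positions (9.97%, 6.87% to 13.8%) and 9.97% of the others. Of all matches in 3′ UTRs of crosslinked genes, 9.67% of miR-25/92 and 5.70% of miR-17 matches were in that stretch, so the matches themselves were also placed unevenly. Per match present there the families were alike: 43.1% of 58 miR-25/92 and 40.8% of 71 miR-17 matches held a crosslink. Outside that stretch it was 22.0% and 21.9%. The pattern was noticed in the data and not tested. The miR-25/92 positions there in all 5 libraries were those of Cic, Map1b, Mast4 and Tob2, which lay 75, 124, 127 and 129 nt from the end. The transcript ends are those of the annotation, and the ends used in retina were not measured.

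**Figure D5:**
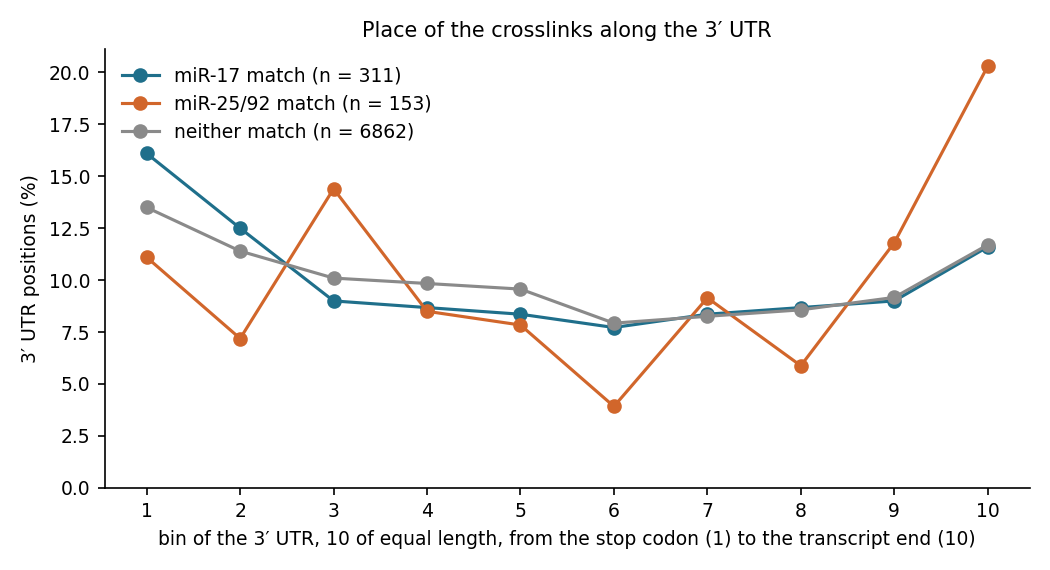
Share of 3′ UTR positions (vertical axis, %) in each of 10 equal bins of the 3′ UTR from the stop codon (1) to the transcript end (10), for miR-17 (n = 311), miR-25/92 (n = 153) and neither match (n = 6862). The miR-25/92 line ends at 20.3% in the last bin, where the others end at 11.6% and 11.7%.

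The miR-17 sites in all 5 libraries included genes of the microRNA silencing machinery itself. Of 17 crosslinked genes of the microRNA pathway, 8 held a miR-17 match and 0 a miR-25/92 match. Of all 4339 crosslinked genes, 8.41% held a miR-17 match, 3.78% a miR-25/92 match and 11.8% (514) a match of either family. Beside 3.78%, a count of 0 among 17 genes does not show a lack of miR-25/92 sites. By position the list was near the background, with 8 of 140 exonic positions (5.71%) beside 5.23% overall; the list was drawn up with results of these data known. Cnot7, a catalytic deadenylase of the CCR4-NOT complex, had its 8mer on chromosome 8 at 40493590 to 40493596 (minus strand, mm10), in the 3′ UTR in exon 6 of 6, in 5 libraries. Cnot6l, another deadenylase of that complex, had an 8mer on chromosome 5 at 96075642 to 96075648 (minus strand) in exon 12 of 12, also in 5. Ago2, the Argonaute that can cut its target, had a 7mer in 5 libraries on chromosome 15 at 73096835 to 73096841 (minus strand), 10066 nt into a 3′ UTR of 11064 nt. Ago1 and Tnrc6a, a scaffold that links Argonaute to the deadenylases, each had a 3′ UTR 7mer in 3 libraries, and Tnrc6b had an 8mer in 3 libraries in an exon annotated as noncoding. The remaining 2 were Ago3 and Cnot4.

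Genes of growth and differentiation carried both families. Of 24 crosslinked cell cycle genes, 5 held a miR-17 match and 3 a miR-25/92 match, 33.3% of them with either beside 11.8% of all genes; by position it was 9 of 111 (8.11%) beside 5.23%. Btg2, an antiproliferative gene that neural progenitors switch on before their last division, had 2 miR-25/92 8mers on chromosome 1, at 134076023 to 134076029 and 134076324 to 134076330 (minus strand), 301 nt apart in the 3′ UTR in exon 2 of 2, each in 5 libraries. Tob2, of the same family, had its 8mer in 5 libraries at 81848394 to 81848400 on chromosome 15 (minus strand). By contrast Cdkn1a, the inhibitor of cyclin-dependent kinases known as p21, had a miR-17 7mer in 2 libraries, starting 2 nt after the crosslink. Ccnd1, cyclin D1, had its miR-17 match in coding sequence at the rim of the window, 14 nt after the crosslink, in 2 libraries. Mycn, a proto-oncogene of progenitors, had a miR-17 7mer in 4 libraries, 11 nt after the crosslink. Ccne2, cyclin E2, had a miR-25/92 7mer in 3 libraries, 12 nt after the crosslink.

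Of genes reported as miR-17 targets, 12 were crosslinked and 6 of them held a miR-17 match, beside 8.41% of all crosslinked genes. By position, 9 of 76 (11.8%) held a match of either family, beside 5.23% of all exonic positions. The lists of reported targets were drawn up with results of these data known. Stat3, a cytokine-activated transcription factor, had a miR-17 match in 5 libraries, starting 3 nt after the crosslink. Hif1a, the oxygen-regulated transcription factor, and Zbtb4, a repressor, had theirs in 4. Of 10 crosslinked genes reported as miR-25/92 targets, 4 held a miR-25/92 match (beside 3.78% of all crosslinked genes): Bcl2l11, Btg2, Dkk3 and Map2k4. By position, 7 of 55 (12.7%) on that list held a match of either family, beside 5.23% of all exonic positions. Bcl2l11, which encodes the cell death protein Bim and is reported for both families, had 2 miR-25/92 sites in 3 libraries each, at 128161174 to 128161180 and 128162449 to 128162455 on chromosome 2 (plus strand), and no miR-17 match near its 7 exonic crosslinks. Dkk3, a secreted relative of Wnt antagonists, had an 8mer in 5 libraries only 29 nt after the stop codon, at 112118175 to 112118181 on chromosome 7 (minus strand). Bmpr2, a BMP receptor on the list for miR-17, held a miR-25/92 8mer in 2 libraries in its place, and Kat2b, a histone acetyltransferase on the list for miR-25/92, held a miR-17 7mer in 3.

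In TGF-beta and BMP signalling, 7 of 19 crosslinked genes (36.8%, beside 11.8% of all) held a match, at 7 of 70 positions (beside 5.23% overall). Smad5, a BMP-activated Smad, had a miR-17 7mer in 5 libraries at 56738256 to 56738262 on chromosome 13 (plus strand). The co-repressors Ski and Skil had miR-17 7mers in 3 and 4 libraries, and Zfyve9, which anchors Smads at endosomes, had an 8mer in 4. Tgif1, a repressor of the same pathway, had a miR-25/92 8mer in 3. Of 16 crosslinked genes of apoptosis and PI3K signalling, 2 held a miR-17 and 3 a miR-25/92 match, 4 with either (beside 11.8% of all genes), at 6 of 65 positions (9.23%, beside 5.23%). Akt1, a kinase of that pathway, had a miR-25/92 match in 2 libraries. Phlpp2, a phosphatase that acts on Akt, held both, in 2 and 3 libraries.

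Few transcription factors of retinal fate were among the members, although they were often crosslinked. Of 37 crosslinked genes on that list, with 257 exonic positions, 3 genes (8.11%) held a match at 5 positions (1.95%), beside 11.8% of genes and 5.23% of positions overall. Neurog2, a proneural factor, had a miR-17 7mer in 5 libraries in the 3′ UTR at 127635094 to 127635100 on chromosome 3 (plus strand), starting 3 nt after the crosslink, and an 8mer in 3 libraries in its coding sequence; these were its only 2 exonic crosslinks. Sox4, which acts in ganglion cell differentiation, had a miR-25/92 8mer in 5 libraries and a miR-17 7mer in 3, with 405 nt between them. Prdm1, a photoreceptor fate regulator, had 21 exonic crosslinks, of which 1 was a miR-25/92 position in coding sequence in 2 libraries, with the match before the crosslink.

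Of 26 crosslinked genes of the cytoskeleton, axon and synapse, 3 held a miR-17 and 2 a miR-25/92 match (19.2% with either, beside 11.8% of all genes). Their 6 of 129 positions (4.65%) were near the 5.23% overall. Map1b, a microtubule protein of growing axons, had 33 exonic crosslinks and a miR-25/92 8mer in 5 libraries near the end of its 3′ UTR, at 99421563 to 99421569 on chromosome 13 (minus strand). Epha4, a guidance receptor, had a miR-17 8mer in 5 libraries 48 nt after the stop codon, at 77373678 to 77373684 on chromosome 1 (minus strand), and Dpysl2, an axonal microtubule regulator, had a 7mer in 5. Nefl, the light neurofilament, had a miR-25/92 8mer in 3.

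Chromatin and protein turnover genes added further sites. Of 37 crosslinked chromatin regulators, 7 held a miR-17 and 3 a miR-25/92 match (27.0% with either, beside 11.8% of all genes), at 12 of 161 positions (7.45%, beside 5.23%). Kdm2a, a histone demethylase, had a miR-17 8mer in 5 libraries at 4317822 to 4317828 on chromosome 19 (minus strand), and Chd9, a chromatin remodeller, had 2 miR-17 7mers, in 3 and 4. Bcl11b, a zinc-finger transcription factor, had a miR-25/92 8mer in 3. Of 25 crosslinked ubiquitin ligases and deubiquitinases, 6 held a miR-17 match, among them Itch in 4 libraries, and 1 held a miR-25/92 match (28.0% with either, beside 11.8%); their 8 of 132 positions (6.06%) were near the 5.23% overall. The miR-25/92 match was that of Usp9x, a deubiquitinase, whose 7mer lay in coding sequence in exon 35 of 45, at 13156085 to 13156091 on chromosome X (plus strand), in 5 libraries. Of 20 crosslinked genes of vesicle trafficking and autophagy, 6 held a miR-17 match and 1 a miR-25/92 match (35.0% with either, beside 11.8%), at 7 of 48 positions (14.6%, beside 5.23%). Rab10, a GTPase of secretory vesicles, had its miR-17 7mer in 4 libraries.

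In coding sequence 2 miR-17 positions were in 5 libraries, those of Pank3 and of Syt11, the latter named after its values were seen. Pank3, a kinase of coenzyme A synthesis, had an 8mer in exon 2 of 7 at 35776303 to 35776309 on chromosome 11 (plus strand). Other members in all 5 libraries were Ccdc50, Gramd1a and Plekha3 for miR-17, and Fndc3b, Fxr1, Mast4 and Dennd1b for miR-25/92, each as an 8mer in the 3′ UTR that began 1 nt after the crosslink. The noncoding 1700020I14Rik had a miR-25/92 8mer in 5 libraries among its 21 exonic crosslinks. Cic, a transcriptional repressor downstream of receptor tyrosine kinases, had its 8mer at 25294085 to 25294091 on chromosome 7 (plus strand).

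Most genes had 1 site. The 575 positions described 548 sites in 514 genes; 27 genes had 2 sites and 3 had more. Of the sites, 28 had more than 1 crosslink. At Ccdc50, for example, the position before the 8mer was in 5 libraries and another 17 nt after the first base of the match was in 4. Zbtb37, a zinc-finger gene, had 2 miR-17 sites, in 4 and 5 libraries, and Mtln, which encodes a small mitochondrial protein, had 2 in 3 and 5 libraries, both of them its only exonic crosslinks. Rsbn1 had 3 miR-25/92 sites, in 2, 3 and 3 libraries.

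Of the genes with a miR-17 match (365) and those with a miR-25/92 match (164), 15 had both. These were 4.11% of the former, where 3.78% of all 4339 crosslinked genes had a miR-25/92 match, and 9.15% of the latter, where 8.41% of all had a miR-17 match, so the overlap was near the background. Sox4 was the only one of the 15 with a 3 or more library site of each family in the 3′ UTR. Hipk3, a protein kinase, had 3 miR-25/92 sites and 1 miR-17 site. Ube2w, a ubiquitin-conjugating enzyme, had its miR-17 and miR-25/92 sites 256 nt apart, in 2 and 3 libraries. Xrn1, the exonuclease that degrades decapped messenger RNA, had both matches in 1 window, 13 nt apart, in 2 libraries. Deposited miR-216 sites, the subject of the study, lay within 20 nt of 8 miR-17 positions (2.01%) and 1 miR-25/92 position (0.562%), compared with 3.01% of exonic positions with neither match. Among those 8, Eif4g2, a translation factor chosen after its values were seen, was in 5 libraries.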

How the data were processed

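PAR-CLIP had been done by the authors on retina explants with 5 Argonaute and 2 IgG libraries, as described above. Per the submitters' processing notes the tools were CASAVA 1.8.2, STAR and bedtools on the mm10 build; for any further step the sources used here give nothing. The deposited score counts the samples that hold a position, as the table's header line states. Since a position must be read in at least 2 libraries, RNAs of high level are favoured, and a site that is not listed may still be bound. The deposited list of miR-216 sites was used only to count nearby sites. Depth is unknown.

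Positions were placed on the same strand in exons of GENCODE M21, with 3′ UTR taken before coding sequence, then 5′ UTR, then noncoding exons, in the longest transcript. All 10989 exonic positions fell on T. Windows were 41 nt of spliced sequence, which leaves out 3065 positions not in exons. Where a window held several matches, the one starting nearest to 1 nt after the crosslink was used. Groups were compared by Fisher's exact test, two-sided (Python 3.11.15, scipy 1.17.1), adjusted by Benjamini-Hochberg over 4 tests between families and 4 against other positions, with 0.05 as threshold; intervals are exact 95% Clopper-Pearson. The search and the test were tested on simulated data.

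Named genes were those with most sites, up to 10 per family by libraries, 8mer and offset, up to 10 with both families and up to 6 of each of 11 lists, 76 in all. Some are summarised without their name or are not reported here. Sequence is printed for a selection and for none on chromosome 18. The members and lists were chosen with earlier results of these data known. Alternatives changed the window, transcript and class order, match type, libraries required and positions per gene.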

Additional observations from a re-analysis of the deposited data

How the results depend on the processing

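Of 92 recomputed values, 78 kept their direction and side of the threshold, or stayed within 1.5 times of a count. With 8mer matches only, the counts were 143 miR-17 and 95 miR-25/92 positions and 2 genes with both, and the 3′ UTR contrast of miR-17 with other positions was no longer past the threshold (odds ratio 1.24, Fisher's exact test, adjusted p = 0.249). The 3′ UTR contrast between the families was lost with coding sequence placed before 3′ UTR (0.642) and with the most recurrent position per gene (0.594). With that same choice of 1 position per gene, recurrence against other positions was 1.06 for miR-17 and 1.04 for miR-25/92. That choice takes the highest of several positions in a gene, which raised mainly the share of positions with neither match. The contrast of recurrence between the families, 0.980, changed side of 1 without nearing the threshold: it was 1.02 with 10 nt windows, with 3′ UTR positions only and with the first position per gene, 1.01 with the most recurrent position per gene, 1.05 for 4 or more libraries, and 1.07 for matches that begin 1 nt after the crosslink. The cause of these changes was not tested. The contrasts of 8mer share, of the 1 nt start, of the 3′ UTR share of miR-25/92 and of near against distant matches stayed past the threshold under every alternative run for them, at 0.386 to 0.481, 0.395 to 0.622, 2.96 to 3.95, and 3.92 or more. The choice of the first position per gene, of 5 libraries, of the 1 nt start alone and of 3′ UTRs for the 8mer share was made after seeing the data. The planned removal of windows with other seeds covered miR-19, miR-18, let-7 and miR-9 but not miR-124, whose sequence was not used here. No paired analysis was possible because the table pools the Argonaute libraries; nor could a single library be dropped. Read depth limits which positions reach 2 libraries and is unknown.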

Other observations

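The miR-25/92 8mer followed by AA contains AATAAA, the letters of the common polyadenylation signal. Of 153 miR-25/92 positions in 3′ UTRs, 12 (7.84%, exact 95% interval 4.12 to 13.3) had this overlap. The letters of the miR-17 match do not allow it, so the families cannot be compared by this count. AATAAA anywhere within 20 nt after the crosslink was found at 1.98% (1.67 to 2.34) of 6862 3′ UTR positions with neither match. By that measure the count was 3 of 311 miR-17 positions (0.965%, 0.199 to 2.79) and 12 of 153 miR-25/92 positions. All 12 positions with the overlap were 8mers, which the overlap requires. Of them, 6 were found in 3 or more libraries, and 3 lay within 150 nt of the annotated transcript end. Mast4, a kinase, was the one in 5 libraries, 127 nt from the end. Mia3, which acts in secretion, was in 4 libraries, 384 nt from the end, and Nefl was in 3, 1242 nt from it. Slx4, a DNA repair scaffold, was in 3 libraries at 55 nt, and Fnip1 in 2 at 27 nt. Mia3, Slx4 and Fnip1 were chosen after their values were seen. Whether these letters serve as a cleavage signal in retina was not tested, and the overlap is set by the letters of the match.

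Pairing beyond the seed was also counted. A complement to bases 13 to 16 of miR-17-5p, CACT, lay 4 to 16 nt before the match at 21 of 292 near miR-17 positions (7.19%, 4.51 to 10.8), where 4.78% (4.38 to 5.21) of windows with neither match held it in the same stretch. For miR-92a-3p, CGGG was present at 5 of 139 near positions (3.60%, 1.18 to 8.19) against 0.605% (0.465 to 0.773). For other members the values were 1.37% against 0.835% for miR-93-5p, 0.719% against 0.979% for miR-25-3p and 3.60% against 2.88% for miR-32-5p, so the miR-25/92 members did not all go the same way. These are counts with no test, and the miR-92a-3p value rests on 5 positions.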
